A study of Rattus norvegicus with 24 samples.

Results

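The genes of the opioid system were examined across the arrays: the peptide precursors Penk, Pdyn and Pnoc, and the receptors Oprm1, Oprd1, Oprk1 and Oprl1. Their members were the probe sets (groups of short probes that report 1 transcript) whose only gene symbol in the platform annotation was 1 of these 7 genes. There were 13 such probe sets among the 31099 of the array. Of these, 12 passed the filter on low signals, which required the 20th percentile of the array to be reached on at least 3 of the 24 arrays. All of the 27032 probe sets that passed were tested together. Where a gene has several probe sets they are numbered by falling mean signal: Pdyn 1 is 1383294_at, Pdyn 2 is 1369882_at, Oprm1 1 is 1387461_at, Oprm1 2 is 1369109_at, Oprk1 1 to Oprk1 3 are 1368197_at, 1368198_at and 1387102_at, and Oprl1 1 to Oprl1 3 are 1369646_at, 1369645_at and 1387661_a_at. Penk is 1367949_at, Pnoc is 1368369_at and Oprd1 is 1368791_at.

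Opioid peptides are cut from large precursor proteins by convertases in secretory granules and act on receptors coupled to inhibitory G proteins, which lower cyclic AMP, open potassium channels and close calcium channels. Proenkephalin (Penk) gives the enkephalins, which bind delta and mu receptors (Oprd1, Oprm1). Prodynorphin (Pdyn) gives the dynorphins, the main ligands of the kappa receptor (Oprk1), and prepronociceptin (Pnoc) gives nociceptin, the ligand of Oprl1. In the midbrain these receptors are known for setting the activity of dopamine neurons and of the periaqueductal gray, and Penk and Pdyn mark the striatal neurons of the indirect and the direct pathway, respectively.

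The question of the study was how paced mating, in which the female controls the timing of contacts with the male, changes midbrain gene expression, and whether ovarian and adrenal glands matter for it. All rats were adult Long-Evans females of 50 to 60 days, and RNA of a grossly dissected midbrain was applied to Rat Genome 230 2.0 arrays (Affymetrix). There were 12 arrays of gonadally intact rats in proestrus (6 titled with a number only, 6 titled Intact-1 to Intact-6), 6 of rats without ovaries (ovariectomized, OVX) and 6 of rats without ovaries and adrenals (adrenalectomized as well, OVX/ADX). Each set of 6 holds 3 arrays labelled paced mated, and the other 3 are labelled chamber exposed, that is, of rats placed in a clean mating chamber with no male. The OVX and OVX/ADX rats, in both mating conditions, had received 10 μg of estradiol benzoate 44 h before the test, 10 days after surgery, whereas the intact rats cycled naturally. The methods give 3 rats per condition and 6 intact rats in all, whereas 12 arrays are labelled intact, and neither source says whether the number-named and the Intact-named arrays came from the same rats. The methods also state that 1 OVX/ADX rat died before its surgery was completed, and 6 arrays carry that label. Values of n count arrays.

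The lowest signal of each array fell in 3 ranges that did not overlap, which were taken to mark 3 separate normalization runs, though no label names a run: 3.58 to 3.65 on the number-named intact arrays, 2.296 to 2.393 on both the Intact-named and the OVX arrays, and 3.38 to 3.43 on the OVX/ADX arrays. The Intact-named and OVX arrays, whose ranges were nearly the same, are called the shared run. Differences between groups were tested within a run, differences over several sets carried the array set as a term, and levels were compared across runs as percentiles within an array. The label midbrain was checked against regional markers. Th, tyrosine hydroxylase of dopamine neurons, stood at the percentile 94.6 (median of 6 number-named arrays) and 92.3 (OVX/ADX), but at 33.5 (Intact-named) and 36.9 (OVX). On the OVX arrays it reached 8.60 in log2 signal on OVX-4 only and was at most 6.25 on the others. The cortical transporter gene Slc17a7 ran the other way, with 97.9 and 97.6 in the latter sets and 52.6 and 55.1 in the former. The median of the whole list of dopamine neuron markers lay at the percentiles 70.3 to 89.5 on the number-named and OVX/ADX arrays and 37.1 to 69.5 in the shared run, where OVX-4 and Intact-1 stood above the other arrays of their sets (8.47 against 6.34 to 6.60, and 7.37 against 6.21 to 6.46, in log2 signal).

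Of the opioid genes, 1 differed between groups past the threshold: Pdyn was higher in intact than in ovariectomized, estradiol-primed rats by its brighter probe set. None of the 12 probe sets passed for paced mating in any set of arrays. In the comparison of the Intact-named with the OVX arrays, which share a run, 1 of 12 member probe sets passed an adjusted p of 0.05 (limma, Benjamini-Hochberg over all probe sets kept), against 1.44% of all 27032. The groups of 6 did not overlap for 1 of 12, against 2.64% of all. Of the 12 differences, 5 lay above 0 and 7 below, with a median of −0.04 in log2 signal. All 3 precursors lay above 0 by their brightest probe set, and 3 of the 4 receptors lay below 0.

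**Figure D1:**
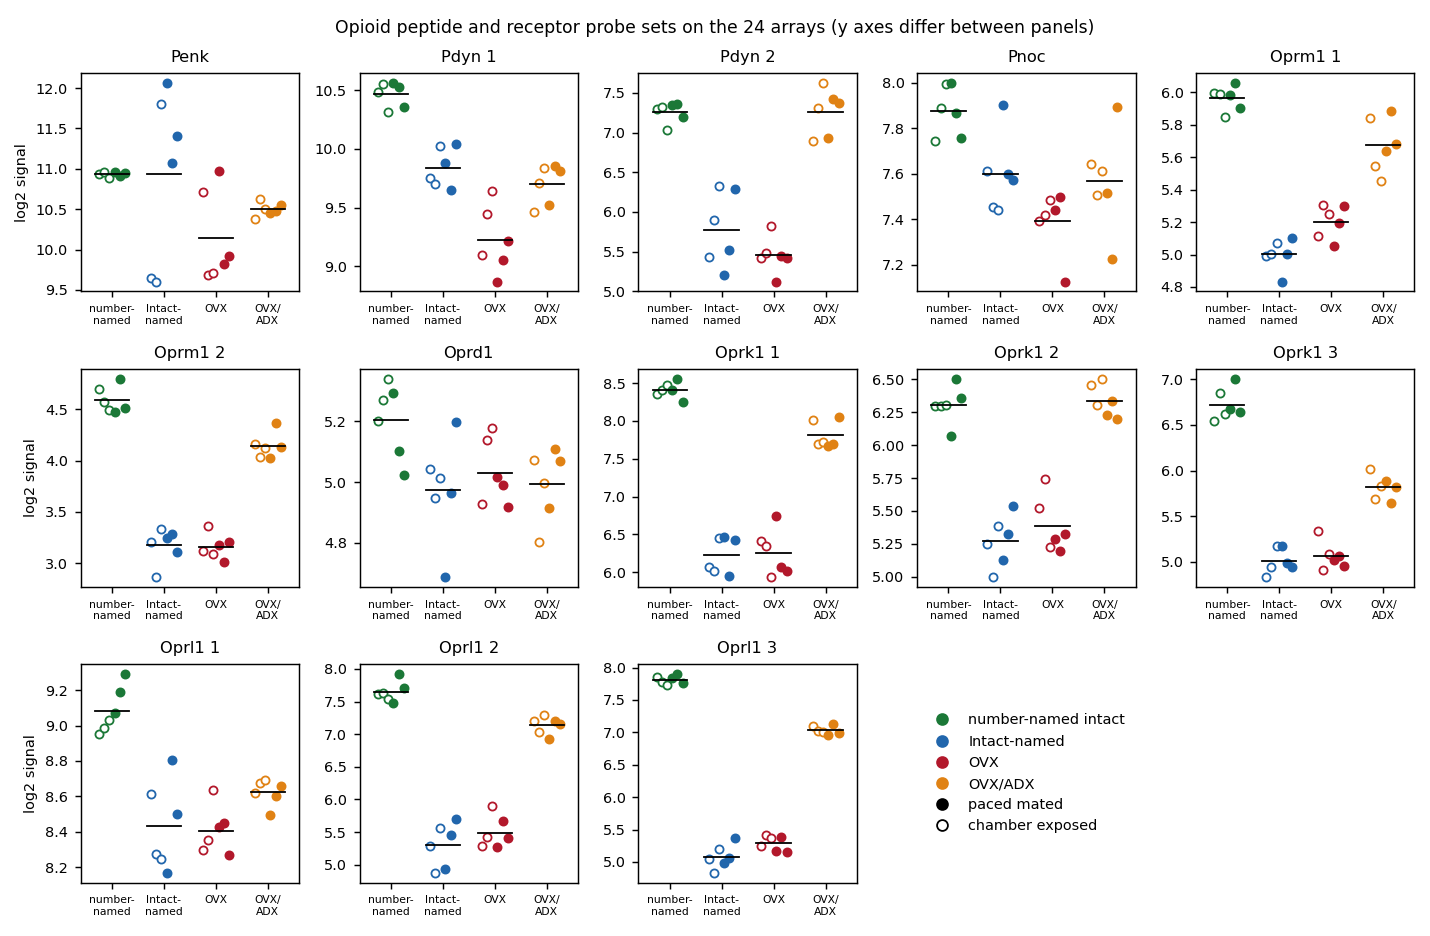
Log2 signal of the 13 opioid probe sets on each of the 24 arrays, by set of 6 arrays (filled, labelled paced mated; open, labelled chamber exposed; line, mean of 6), with a y axis of its own for each probe set. Penk is spread from 9.60 to 12.06 on the Intact-named arrays and from 10.88 to 10.96 on the number-named ones (log2 levels are not comparable between normalization runs).

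The sequence before the Pdyn gene is shown because Pdyn was the member that passed the test between gland groups. It is the 250 bases upstream of the RefSeq gene start, on the minus strand of GRCr8, at chr3:137366504-137366753, written 5′ to 3′ on the strand of the gene, with a TATA box motif in capitals.
Pdyn: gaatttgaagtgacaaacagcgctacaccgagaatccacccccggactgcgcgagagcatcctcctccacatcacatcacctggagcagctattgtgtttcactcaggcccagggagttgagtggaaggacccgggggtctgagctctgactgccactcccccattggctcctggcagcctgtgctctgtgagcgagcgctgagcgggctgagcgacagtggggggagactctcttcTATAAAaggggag
The letters of 3 motifs were searched for on both strands of the 250 bases. The TATA box letters TATAAA were found at −13 to −8 from the gene start, and 12.9% of 33469 rat promoters of the same length in that table hold these letters on either strand. The estrogen response element half-site GGTCA (35.4% of promoters) and the cyclic AMP response element core TGACG (18.2% of promoters) had no match in this window. These matches describe letters and not bound sites. Of the 7 genes, 3 had an entry in the table.

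Pdyn 1 had log2 signals of 9.88, 9.75, 9.65, 9.70, 10.04 and 10.02 on Intact-1 to Intact-6. On OVX-1 to OVX-6 it had 8.87, 9.10, 9.05, 9.45, 9.22 and 9.64. Every Intact-named array lay above every OVX array, though the lowest of the former, Intact-3, and the highest of the latter, OVX-6, were nearly level. The mean was 9.84 ± 0.17 (SD, n = 6) against 9.22 ± 0.28 (SD, n = 6), a difference of 0.62 in log2 signal (SE 0.12, 95% interval 0.36 to 0.88), or 1.54-fold. By limma the adjusted p was 0.0344, and the exact permutation test within mating labels gave a two-sided p of 0.005, the smallest that this design allows. Within the arrays labelled paced mated the difference was 0.81, and within those labelled chamber exposed it was 0.43, each from 3 arrays against 3. The call depended on single arrays: it was lost on leaving out 9 of the 12 arrays in turn, with adjusted p up to 0.0832 without OVX-4, and it held without Intact-4 (0.0363), Intact-5 (0.0459) or OVX-6 (0.0223). Without moderation of the variances the adjusted p was 0.0751.

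The dimmer Pdyn 2 ran from 5.21 to 6.33 on the Intact-named arrays and from 5.12 to 5.83 on the OVX arrays. Its groups overlapped, and the difference of 0.32 (SE 0.18) had an adjusted p of 0.335 by limma. Over the 24 arrays, after the mean of each set of 6 was subtracted, Pdyn 1 and Pdyn 2 had a Pearson r of 0.71. In the other runs, Pdyn 1 ran from 10.31 to 10.56 on the number-named arrays (10.47 ± 0.11, SD, n = 6) and from 9.46 to 9.85 on the OVX/ADX arrays (9.70 ± 0.17, SD, n = 6). In the latter set the lowest were arrays 2530 (9.46) and 2541 (9.52), whose title numbers lie in the series of the number-named arrays, while the other 4 lay at 9.71 or above. The labels of the Intact-named arrays carry a different leading number (1954) from those of the OVX arrays (1955), so that any batch these numbers mark and the gland group cannot be told apart.

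Regional markers moved with the same comparison. All 8 of 8 thalamus markers were lower on the Intact-named arrays, with 1 past the threshold and all 8 at an unadjusted p under 0.05. This one, Slc17a6, a vesicular glutamate transporter of thalamic neurons, differed by −1.69 (adjusted p = 0.0394, limma). The median of the thalamus list ran from 7.94 to 8.81 on the Intact-named arrays and from 8.06 to 10.09 on the OVX arrays. Among the OVX arrays, OVX-6 had the highest Pdyn 1 signal, the lowest Slc17a6 (9.50) and the lowest Tcf7l2 (9.08), a transcription factor of thalamic neurons. At the other end, OVX-1 had the lowest Pdyn 1 signal, the highest Slc17a6 (11.69) and the highest Tcf7l2 (12.35). Over the whole list the pattern was mixed. Its median on OVX-1, the array with the lowest Pdyn 1, was 8.61, under that of 4 other OVX arrays, and the r of its 8 genes with Pdyn 1 over 24 arrays, after subtraction of the set means, ran from −0.60 (Slc17a6) to 0.30 (Ramp3) with a median of −0.08. All 4 of 4 cerebellum markers were lower on the Intact-named arrays as well, with a median difference of −0.97, 0 past the threshold and 1 at an unadjusted p under 0.05 (limma). OVX-1 stood apart in them, with a list median of 10.30 against 6.82 to 7.18 on the other OVX arrays and 6.03 to 6.71 on the Intact-named ones. Without OVX-1 the Pdyn 1 difference was 0.56 (adjusted p = 0.0669, limma). Of the striatal markers 8 of 9 were above 0, with 0 past the threshold and 4 at an unadjusted p under 0.05 (limma). Of the dopamine neuron markers 8 of 9 were below 0, with 0 past the threshold, and at an unadjusted p under 0.05 were Ddc (−0.42) and Foxa2 (−0.17), which were lower, and Nr4a2 (0.52), which was higher. Of the cortex and hippocampus markers, all but Slc17a7 (−0.16) and Tbr1 (−0.06) were above 0. Neurod2 (0.33, adjusted p = 0.113, limma) and Fezf2 (0.36, adjusted p = 0.187, limma) were at an unadjusted p under 0.05. The unadjusted counts of these lists stand without the share of all probe sets. The part of these regional differences in that of Pdyn was not tested, and in dissected tissue fewer cells of a type and less RNA per cell cannot be told apart. Across the 24 arrays the genes most like Pdyn 1, by Pearson r after subtraction of the set means and among 13076 genes, were Med8 (0.77), Zfp706 (0.76) and Brap (0.75). Over the shared run these r were 0.95, 0.79 and 0.82, and over the other 12 arrays 0.365, 0.73 and 0.54.

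**Figure D2:**
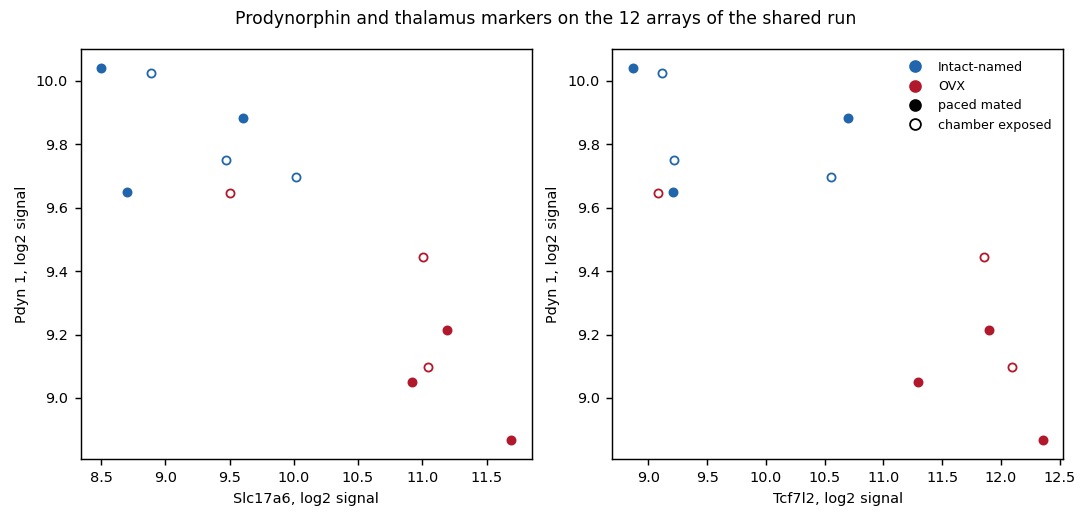
Log2 signal of Pdyn 1 against that of the thalamus markers Slc17a6 (left) and Tcf7l2 (right) on the 12 arrays of the shared run, with a point for each array (filled, labelled paced mated; open, labelled chamber exposed). The OVX array at the left, OVX-6, has a Pdyn 1 signal of 9.64, next to the Intact-named arrays, and a Slc17a6 signal of 9.50, within their range of 8.50 to 10.02.

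Penk had the widest spread of the members. On Intact-1 to Intact-6 its log2 signals were 12.06, 9.65, 11.08, 9.60, 11.41 and 11.81. On OVX-1 to OVX-6 they were 10.97, 10.71, 9.83, 9.69, 9.92 and 9.71. The values of Intact-2 and Intact-4 lay more than 1 log2 unit under those of the other 4 Intact-named arrays, and OVX-1 and OVX-2 stood above the other OVX arrays. The SD over 6 arrays was 1.07 on the Intact-named and 0.56 on the OVX arrays, which placed Penk at the percentiles 99.8 and 98.9 of the SDs of all probe sets kept. On the number-named arrays the lowest, median and highest values were 10.88, 10.94 and 10.96 (SD 0.03, percentile 2.02 of the SDs), and on the OVX/ADX arrays they were 10.38, 10.50 and 10.63 (SD 0.09).

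On the Intact-named arrays, those with high Penk were those with high Rgs9 and Adora2a, which are striatal markers. Rgs9, which shortens G protein signalling in striatal neurons, was 8.90, 8.53, 8.54 and 8.997 on Intact-1, Intact-3, Intact-5 and Intact-6, and 7.78 and 7.56 on Intact-2 and Intact-4. Adora2a, the adenosine receptor of enkephalin neurons, was 8.55, 7.98, 8.02 and 8.71 on the same 4 arrays and 6.18 and 5.78 on the other 2. On the OVX arrays the list median of striatal markers was 7.935 on OVX-2, under the 8.096 of OVX-3, which had less Penk. Rgs9 was highest there on OVX-1 (8.19) and OVX-2 (7.935), whereas Adora2a was higher on OVX-5 (6.86) than on OVX-2 (6.625). Both genes were among the 3 most like Penk of 13076, with r of 0.95 (Spearman rho 0.80) for Rgs9, 0.92 for Krt71 and 0.91 for Adora2a over 24 arrays. The likeness came from the shared run: r with Rgs9 was 0.97 over its 12 arrays and −0.09 over the other 12, where Penk hardly varied, and 0.91 without the 2 arrays farthest from the median. All 9 of 9 striatal markers compared had an r over 0.5 with Penk (median 0.75), against 0 of 8 thalamus, 0 of 9 cortex and hippocampus and 0 of 9 dopamine neuron markers. These r values share arrays and dissections and are given as a description.

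**Figure D3:**
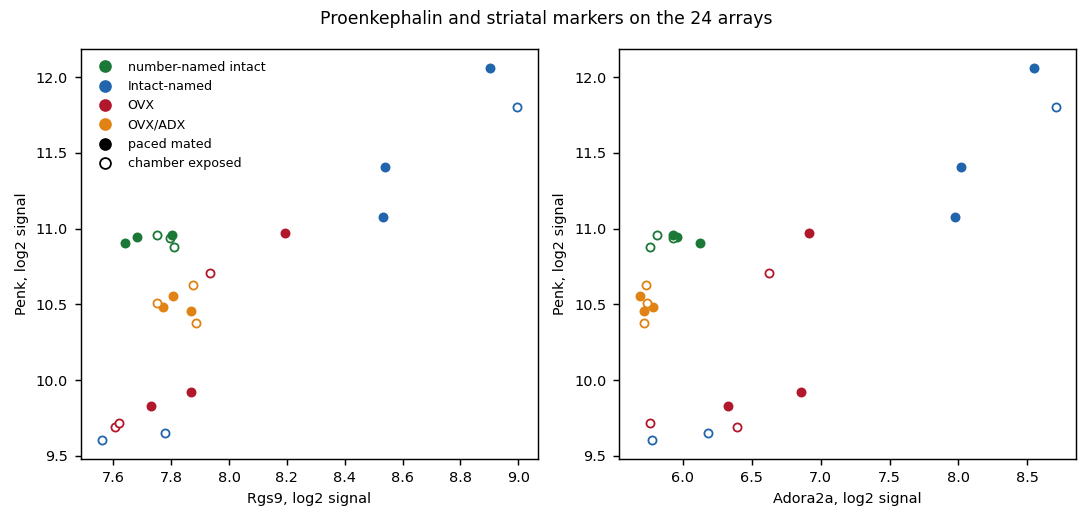
Log2 signal of Penk against that of the striatal markers Rgs9 (left) and Adora2a (right) on the 24 arrays, with a point for each array (filled, labelled paced mated; open, labelled chamber exposed). On the Intact-named arrays high Penk goes with high Rgs9 and Adora2a, and on the OVX arrays more closely with Rgs9 than with Adora2a. The number-named and OVX/ADX arrays form tight groups (log2 levels are not comparable between normalization runs).

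With this spread, Penk was 0.80 higher on the Intact-named than on the OVX arrays (SE 0.40), with overlapping groups and an adjusted p of 0.279 by limma. By mating label it differed by 1.16 on the Intact-named arrays, higher with the paced mated label (SE 0.585, 95% interval −0.21 to 2.54, adjusted p = 0.679 by limma), the largest mating difference of any member in these data. The 3 arrays labelled paced mated lay between 11.08 and 12.06, and of those labelled chamber exposed 2 lay under 9.7 and Intact-6 lay at 11.81, inside the paced range. Striatal markers differed in the same pattern, with a list median of 8.396 to 8.902 on the arrays labelled paced mated, 7.52 and 7.78 on Intact-4 and Intact-2, and 9.04 on Intact-6. Their part in the Penk difference was not tested. On the number-named arrays, where Adora2a ran from 5.76 to 6.13 and the striatal list median from 7.73 to 9.07, the mating difference of Penk was 0.01 (SE 0.05, 95% interval −0.11 to 0.14). The striatal genes varied unequally on these arrays: Drd2 ran from 7.73 to 9.37 and Drd1 from 6.545 to 7.57. Rgs9 (7.64 to 7.81) and Ppp1r1b (8.87 to 9.30) had narrower ranges, so the range of the list median does not stand for every gene in it.

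Pnoc ran from 7.44 to 7.90 on the Intact-named arrays, with a median of 7.59, and from 7.126 to 7.499 on the OVX arrays, with a median of 7.43. The groups overlapped, and Pnoc was 0.20 higher on the Intact-named arrays (SE 0.09). This difference had an unadjusted p of 0.0385 and an adjusted p of 0.213 by limma, and an exact permutation p of 0.02. The highest value was on Intact-1 and the lowest on OVX-5. The genes most like Pnoc were Exosc4 (r = 0.78), Mrpl58 (0.78) and Naa38 (0.77), over 24 arrays.

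Among the receptors, the mu receptor probe set Oprm1 1 ran from 4.83 to 5.10 on the Intact-named arrays, with a median of 5.01, and from 5.05 to 5.30 on the OVX arrays, with a median of 5.22. It differed by −0.20 between the Intact-named and the OVX arrays (SE 0.06), with overlapping groups, an unadjusted p of 0.00844, an adjusted p of 0.12 by limma and an exact permutation p of 0.015. The other mu receptor probe set, Oprm1 2, reached the 20th percentile on 0 of 24 arrays and did not pass the filter. Oprl1 3 differed by −0.205 (SE 0.09, unadjusted p = 0.0399, adjusted p = 0.216, limma), and Oprl1 1, of the same nociceptin receptor gene, by 0.03 (SE 0.11). The difference between these probe sets was not tested. In the shared run Oprm1 1 lay at the percentiles 18.6 to 23.5 and Oprl1 3 at 18.4 to 24.7. Both were thus near the 20th percentile of the filter, which limits what their differences can show. The delta receptor probe set was at or above the 20th percentile on 8 of 24 arrays, ran from the percentile 14.3 to 22.5 over all of them, and differed by −0.05 (SE 0.08) between the gland groups. The 3 kappa receptor probe sets differed by −0.11 to −0.02, with 95% intervals that reached from −0.36 to 0.30. Missing the threshold is no evidence of equal levels.

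**Figure D4:**
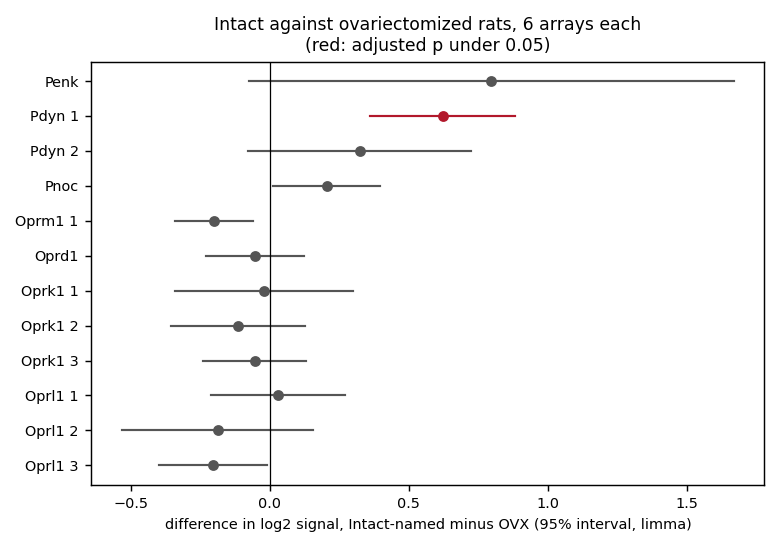
Difference in log2 signal between the Intact-named and the OVX arrays (6 each, mating label as a term) for the 12 opioid probe sets that passed the filter, with 95% intervals from limma (red, adjusted p under 0.05). Pdyn 1, at 0.62, is the only one past the threshold, and Penk, at 0.80, has an interval that includes 0.

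The tested probe sets of Oprm1, Oprk1 and Oprl1 also set the runs apart, and that of Oprd1 did not. By percentile within the array, 8 of the 12 member probe sets were lower on all 12 arrays of the shared run than on all 12 other arrays, against 20.2% of all probe sets kept. These were Pdyn 2, Oprm1 1 and all 3 probe sets each of Oprk1 and Oprl1, so that these 2 genes count 3 times each. The delta receptor Oprd1 overlapped between the runs, with a shift of 1.56 percentile points. No member was higher without overlap. The median shift was −11.2 percentile points over the members and 0.26 over all probe sets kept. This is a description with no test, because arrays were normalized apart and run, gland group and dissected tissue cannot be told apart.

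For Oprk1 1 the median percentile was 66.3 on the number-named, 61.6 on the OVX/ADX, 37.8 on the Intact-named and 36.7 on the OVX arrays. The first 2 sets overlapped each other, as did the last 2, and no array of the first 2 sets (lowest 60.8) came down to the highest of the last 2 (44.6). For Oprl1 3 the medians were 57.1, 50.5, 20.7 and 23.6 in the same order of sets. For Oprm1 1 they were 29.5, 30.6, 20.3 and 22.3, and the gap between the runs was narrower (27.6 against 23.5). Pdyn 1 went from 91.9 and 89.3 to 85.3 and 78.4, Penk from 94.5 and 94.4 to 95.5 and 86.4, and Pnoc from 57.9 and 59.0 to 57.0 and 54.3, each with overlap between the runs. Regional markers split the same sets. The list median of hypothalamic markers lay at the percentiles 63.9 to 76.5 on the number-named and OVX/ADX arrays and 28.7 to 37.9 in the shared run. That of dopamine neuron markers lay at 70.3 to 89.5 against 37.1 to 69.5, and that of anterior pituitary markers at 35.55 to 92.4 against 15.1 to 21.6. Cortex and hippocampus markers ran the other way, with 45.15 to 62.9 against 78.6 to 88.7. The part of these markers in the receptor levels was not tested.

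Paced mating was compared within each set of 6 arrays and over sets. The number of member probe sets past an adjusted p of 0.05 by limma was 0 of 12 in each comparison. On the number-named arrays 0.0444% of all probe sets passed, and on the Intact-named arrays 0.0148% did. Over both intact sets, on the OVX arrays, on the OVX/ADX arrays and over all 24 arrays the share was 0.0%. At an unadjusted p under 0.05 there was 1 member probe set on the number-named arrays and 0 in each of the other mating comparisons, and a linear model without moderation also gave 0 of 12 throughout. The unadjusted counts of members, here and below, stand without the share of all probe sets and are not read as a result about the members. With 3 arrays against 3, the exact permutation test cannot go below 0.1.

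The member at an unadjusted p under 0.05 was Oprl1 1 on the number-named arrays. Its log2 signals were 9.07, 9.19 and 9.29 on the arrays labelled paced mated and 8.95, 8.98 and 9.03 on those labelled chamber exposed. The groups did not overlap, as was the case for 1 of 12 members and for 15.4% of all probe sets kept. The difference was 0.20 (SE 0.07, 95% interval 0.03 to 0.36), with an unadjusted p of 0.0257, an adjusted p of 0.453 by limma and an exact permutation p of 0.1. The median of 9 anterior pituitary markers set the same arrays apart, with 6.57 to 8.91 on those labelled paced mated and 10.12 to 10.56 on those labelled chamber exposed, and its part in the Oprl1 1 difference was not tested. The other Oprl1 probe sets differed by 0.11 (SE 0.11) and 0.04 (SE 0.06) on the same arrays.

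On the OVX arrays, Pdyn 1 was 8.87, 9.05 and 9.22 on the arrays labelled paced mated and 9.10, 9.45 and 9.64 on those labelled chamber exposed. The groups overlapped, and the difference was −0.35 (SE 0.16, 95% interval −0.72 to 0.015). Its unadjusted p was 0.0576, its adjusted p 1.0 by limma and its exact permutation p 0.2. On the Intact-named arrays the Pdyn 1 difference was 0.03 (SE 0.14). The difference between the 2 mating differences, 0.385 (SE 0.22), had an adjusted p of 1.0 by limma, and that of Penk, 0.96 (SE 0.79), likewise. On the OVX/ADX arrays the smallest p of a member was that of Oprk1 2, with a difference of −0.16 (SE 0.07, unadjusted p = 0.063, adjusted p = 1.0, limma). Penk there differed by −0.01 (SE 0.08). On array 2541 of that set, labelled paced mated, the median of the anterior pituitary markers was 10.14, against 5.97 to 6.21 on the other 5, and without it 0 members passed as well.

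Over all 24 arrays, 7 member differences lay above 0 and 5 below, from −0.10 for Pdyn 2 to 0.34 for Penk (SE 0.22, adjusted p = 0.969, limma, exact permutation p = 0.183). Pdyn 1 differed by −0.06 (SE 0.08). Over both intact sets the Penk difference was 0.59 (SE 0.36). These fits count the 12 intact arrays as 12 animals, and if both sets came from the same 6 rats the errors are too small. The mating difference itself was compared between gland groups within the shared run, where 0 of 12 members and 0.0074% of all probe sets passed, and between the intact sets, where 0 of 12 members and 0.0814% passed (limma; 0 members at an unadjusted p under 0.05 in either, and 0 without moderation). In the latter, Penk differed by −1.15 (SE 0.66, adjusted p = 0.597, limma), and without Intact-6 this became −1.88 with an adjusted p of 0.014 (limma). Intact-6 is the array labelled chamber exposed whose Penk signal (11.81) lay inside the paced range, so the call rests on leaving out that array. The intact sets also differ in run and in regional markers.

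**Figure D5:**
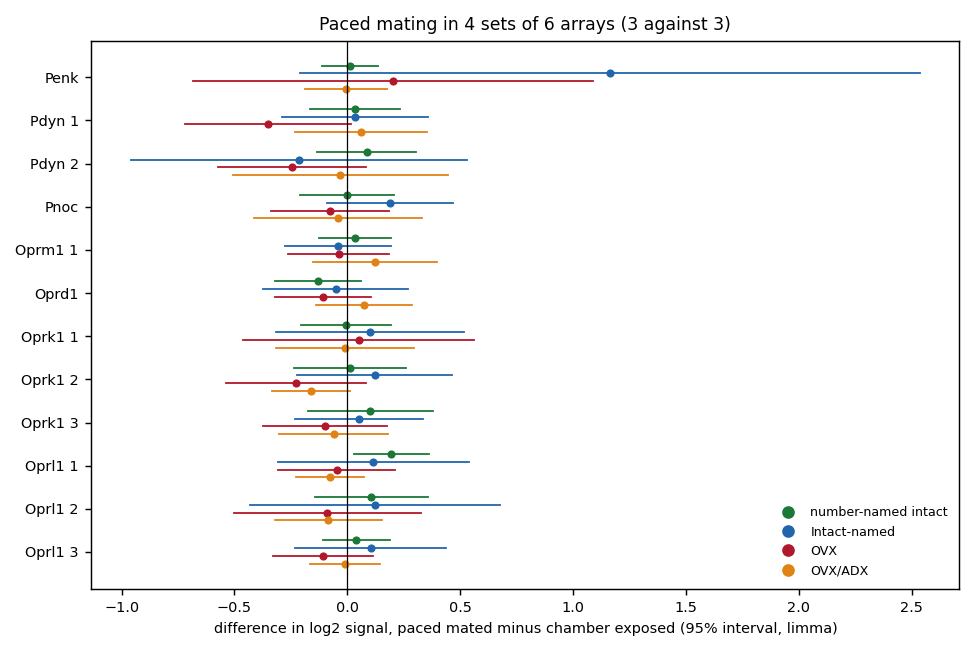
Difference in log2 signal by mating label, paced minus chamber (3 arrays against 3), for the 12 opioid probe sets in each of the 4 sets of arrays, with 95% intervals from limma. The interval of Oprl1 1 on the number-named arrays, 0.03 to 0.36, is the only one that leaves out 0, and that of Penk on the Intact-named arrays is the widest.

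The machinery around the receptors was described from 50 listed genes, of which 44 had a probe set that was tested. In the 8 mating comparisons 0 of 44 passed the threshold (limma), with 1 to 8 at an unadjusted p under 0.05, and between the Intact-named and OVX arrays 0 were higher and 2 lower on the Intact-named arrays, with 11 of 44 at an unadjusted p under 0.05. The unadjusted counts stand without the share of all probe sets and are not read as a result about these genes. Of all probe sets kept, 1.44% passed the threshold between the Intact-named and OVX arrays. The 2 lower genes were Ece2, a peptidase that can cut opioid peptides (−0.395, adjusted p = 0.0379), and Adcy8, an adenylyl cyclase (−0.57, adjusted p = 0.0363). In that comparison, median differences over the lists were 0.02 for related peptides and receptors (8 genes), 0.02 for precursor processing (6), −0.15 for peptide breakdown (5), 0.05 for inhibitory G protein alpha subunits (4), 0.09 for desensitization (11) and −0.05 for effectors (10), beside 0.00 over all probe sets.

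Of the lists with no gene past the threshold, the smallest p between the gland groups was that of Wls among related peptides and receptors (−0.36, adjusted p = 0.0672, limma), a membrane protein that binds mu receptors. It was that of the convertase Pcsk2 in precursor processing (0.26, adjusted p = 0.124), that of Gnai2 among the G protein subunits (0.15, adjusted p = 0.178) and that of Rgs17, which shortens receptor signalling, in desensitization (0.31, adjusted p = 0.109). Pomc, the precursor of beta-endorphin and a pituitary hormone gene, is named here after its values were seen. By mating label, paced minus chamber, it differed by −1.01 on the number-named arrays (SE 0.13, adjusted p = 0.0657, limma). The anterior pituitary list, which holds Pomc, had its lower medians on the arrays with the paced mated label, as given beside Oprl1 1, and its part in the Pomc value was not tested.

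The receptors were also compared with all other genes for the likeness of their pattern over the 24 arrays, after subtraction of the set means. The genes most like Oprm1 1 were Noxo1 (r = 0.82), Klra22 (0.81) and Ttc6 (0.78). Those most like Oprd1 were Hgf (0.81), Fam171a2 (0.77) and Snrpn (0.77), and those most like Oprk1 1 were Asic4 (0.76), Dynll2 (0.75) and Wdhd1 (0.73). For Oprk1 1 the likeness was higher over the shared run (0.81 to 0.865) than over the other 12 arrays (0.15 to 0.55). Those most like Oprl1 1 were Rhbdd2 (0.90), Gpr162 (0.85) and Pnck (0.83), with r of 0.81 to 0.90 over the shared run and 0.91 to 0.92 over the other arrays. All these genes were picked over the same 24 arrays, so the values by run are no separate support. Among the members themselves, the highest r was 0.63, between Penk and Oprk1 1. The pairs of a precursor and the receptor of its peptides gave −0.12 for Pdyn with Oprk1 1, 0.09 for Pnoc with Oprl1 1, −0.27 for Penk with Oprm1 1 and −0.26 for Penk with Oprd1. Probe sets of 1 receptor gene had an r of 0.15 to 0.39 for Oprk1 and of 0.23 to 0.77 for Oprl1, so that they can differ from each other as much as from other genes.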

How the data were processed

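RNA was measured on 24 arrays. The deposited values were log2 signals that the authors made by RMA in Affymetrix Expression Console 1.4, per the processing notes, and they were used as deposited. The methods name GCRMA in GeneSpring instead. Probe sets were named through the platform annotation, and 57 control probe sets were left out. Signals were compared in R 4.3.3 with limma 3.58.1 (lmFit, eBayes), with the Benjamini-Hochberg adjustment over the 27032 probe sets kept and a threshold of 0.05, and the steps were tested on simulated data. The mating label was a term between gland groups, and the array set was one over several sets. Members were also tested by exact permutation within strata, two-sided, except for differences of mating differences. Likeness used 1 probe set a gene, the one of highest mean. The promoter came from the RefSeq table (GRCr8). All probe sets of the members are given. Of the 6 pathway lists, genes past the threshold, or else the gene of smallest p between gland groups, are named, and of the 8 marker lists the median and some markers. Members and lists were chosen with earlier results of these data known. Alternatives covered the filter, normalization, variance model, array weights, a joint fit and each array left out. The limma p-values set a difference against the spread between these arrays, moderated by that of all probe sets kept. The number of arrays limits the precision. No 2 arrays were duplicates (highest correlation 0.997).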

Additional observations from a re-analysis of the deposited data

Results flagged for a closer look

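In each set of 6 arrays, the gap of the highest or lowest array to its neighbour was divided by the range of the set for the 13 opioid probe sets. Of 52 such groups, 2 had a share above Dixon's 95% critical value for 6 samples, and chance gives about 1 in 20. Both were of Pnoc in the shared run. Intact-1 had the highest signal of the Intact-named arrays, 7.90 against a median of 7.59, with a gap of 0.627 of the range. OVX-5 had the lowest of the OVX arrays, 7.13 against a median of 7.43, with a gap of 0.712 of the range. Both arrays are labelled paced mated, and the cause was not tested.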

How the results depend on the processing

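Of 175 counts of members recomputed under the alternatives, 164 were unchanged. For the Intact-named against the OVX arrays the count of 1 became 0 in the linear model without moderation and ran from 0 to 1 on leaving out 1 array. For the mating difference between the intact sets it ran from 0 to 1, with 1 (Penk) without Intact-6. For all other comparisons it stayed at 0 in every alternative run. Members lower in the shared run without overlap numbered 8 by percentile and 8 after quantile normalization. With the title number as a replicate block in place of the mating label, the gland count was 1 (Pdyn 1, adjusted p = 0.0403, limma). Same-numbered arrays had deviations that correlated at 0.018 to 0.314, over 0.1 for 2 of 6 numbers only, so the numbers were not taken as a pairing. Pdyn 1 kept its direction throughout, with differences of 0.56 to 0.70 on leaving out 1 array and 0.55 after quantile normalization. Over all probe sets, the gland count of 388 became 84 without moderation, 722 with array weights, 2877 in the joint fit and 0 to 443 on leaving out 1 array (0 without OVX-4, with 4277 at an unadjusted p under 0.05).

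Of 391 values of single probe sets under alternatives, 12 changed sign, all of them mating differences within 1 set of arrays. With array weights the mating difference of Penk was −0.009 on the number-named and 0.007 on the OVX/ADX arrays, and that of Pdyn 1 was −0.133 on the Intact-named arrays. After quantile normalization that of Penk was 0.005 on the OVX/ADX arrays. On leaving out 1 array, Penk ran from −0.010 to 0.029 on the number-named, from −0.165 to 0.536 on the OVX and from −0.071 to 0.055 on the OVX/ADX arrays, and Pdyn 1 ran from −0.058 to 0.138 on the Intact-named arrays. The cause was not tested. Oprm1 2 and most arrays of Oprd1 lay near the lowest signals, which limits what a difference there can show. A like limit holds in the shared run for Oprm1 1, Oprl1 3 and Oprk1 3, which lay at the percentiles 18.1 to 24.7.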
